A study of Mus musculus with 16 samples.

Results

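The catenins and their cadherin partner are described here in the mouse prefrontal cortex (PFC), as 9 genes chosen by symbol from the 23284 genes of the deposited expression table. They are β-catenin (Ctnnb1), plakoglobin (Jup), the α-catenins Ctnna1 and Ctnna2, and the δ-catenins Ctnnd1 and Ctnnd2. The others are the β-catenin partner Ctnnbip1, Ctnnbl1 (named for its armadillo repeats) and N-cadherin (Cdh2). Bulk RNA was sequenced from 16 mice, with 4 libraries of each of 4 genotypes, to ask which genes change when β-catenin is raised or lowered in excitatory neurons. APC cKO mice carried 2 floxed Apc alleles (APC fl/fl). β-cat cOE mice carried 1 Ctnnb1 allele with a floxed exon 3 (ctnnb1 fl(ex3)/+). APC/β-cat cKO mice carried floxed Apc and floxed Ctnnb1 alleles together (APC fl/fl with ctnnb1 fl/fl). In all 3 mutant lines the same CamKIIα-Cre-93 transgene drove recombination. The paper describes this driver as active mainly in excitatory neurons of the forebrain. Recombination in other cells of the tissue was not measured here. Control mice were littermates without Cre, pooled from all lines, and which floxed alleles each carried is not given in the sources used here. The paper used mice of both sexes, aged 2 to 3 months. By Xist and the Y-linked gene Ddx3y, only Control replicate 1 and APC cKO replicate 1 read as female.

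Catenins hold cadherins to the cytoskeleton. β-Catenin or its relative plakoglobin binds the tail of a classical cadherin and recruits α-catenin, which binds actin, while the δ-catenins bind the cadherin tail nearer the membrane and steady it there. β-Catenin also carries the canonical Wnt signal: a complex that contains APC marks it for destruction, and what escapes enters the nucleus and works with TCF and LEF factors, a step that Ctnnbip1 can block. At cortical synapses N-cadherin and the catenins line the contact between axon and spine.

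The cOE allele loses a short stretch of the β-catenin gene, and the sequence shows which residues go with it. Ctnnb1 lies on chromosome 9 of the mm10 genome, in the deposited table at chr9:120933400-120960507, on the plus strand. Its exon 3, at chr9:120950522-120950749, is 228 nucleotides long, all coding. It is printed below from the reference genome, 5′ to 3′ on the coding strand, with the codons of serine 33, serine 37, threonine 41 and serine 45 in capitals. These are the residues that casein kinase 1 and GSK3 phosphorylate before β-catenin is destroyed.
Ctnnb1 exon 3: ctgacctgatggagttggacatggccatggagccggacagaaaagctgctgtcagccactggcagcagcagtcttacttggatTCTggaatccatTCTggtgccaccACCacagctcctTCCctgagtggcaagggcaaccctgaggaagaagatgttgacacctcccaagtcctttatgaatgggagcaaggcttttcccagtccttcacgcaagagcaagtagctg
Plakoglobin keeps the same arrangement. The proteins translated from the longest GENCODE coding sequences of Ctnnb1 (781 residues) and Jup (745 residues) were aligned, and 510 of 741 aligned residues (68.8%) were identical. The stretch of 63 bases around the phosphorylated residues is shown for both genes, with the same 4 codons of Ctnnb1 in capitals and below them the aligned codons of Jup, serine 24, serine 28, threonine 32 and serine 36. The Ctnnb1 stretch is at chr9:120950593-120950655 on the plus strand, and that of Jup, in its exon 2, at chr11:100386261-100386323 on the minus strand.
Ctnnb1: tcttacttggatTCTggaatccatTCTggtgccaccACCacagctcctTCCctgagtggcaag
Jup: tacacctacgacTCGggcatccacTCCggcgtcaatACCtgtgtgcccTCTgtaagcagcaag
The residues at these positions are alike in kind although 26 of the 63 bases differ. No mutant line carried a floxed Jup allele.

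Levels are given in FPKM, a count of fragments scaled to transcript length and library size, which allows genes of unequal length to be compared. The deposited values were read as log2(FPKM + 1) and turned back. Differences are on the log2(FPKM + 0.1) scale with their standard errors (SE), or as the percentage that this difference stands for with its 95% confidence interval. They were tested with limma across the 13978 genes whose mean reached 0.5 FPKM, and a gene was called at a Benjamini-Hochberg adjusted p under 0.05. All 9 members passed this filter on level. The table holds no fragment counts, so depth per library is unknown; 5726 to 6649 genes were listed at 0 in a library.

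The targeted gene Apc was read first. It lay between 40.8 and 50.1 FPKM in the Control libraries and between 38.8 and 49.5 FPKM in the β-cat cOE libraries. It lay between 7.85 and 17.1 FPKM in APC cKOs, the highest value being that of replicate 1, and between 6.80 and 12.2 FPKM in APC/β-cat cKOs. All 8 libraries of the 2 lines in which Cre targeted Apc were thus below all 8 others. For Ctnnb1, exons 2 to 6, floxed in the APC/β-cat cKO line, make up 27.16% of the transcript and exon 3 makes up 6.29%. The deposited values are 1 per gene and do not separate exons, so the loss of these exons in the recombined cells was not measured. Excitatory neuron markers were present in every library, with Slc17a7, Camk2a, Neurod6 and Tbr1 summing to between 1055 and 1362 FPKM. Markers of striatal neurons (Drd1, Drd2, Adora2a, Ppp1r1b and Rgs9) summed to between 50.5 and 311 FPKM, so libraries differed in this list within each genotype.

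β-Catenin was by far the most abundant of the 9 mRNAs. In Control mice the order was Ctnnb1 (160 ± 4.54 FPKM, SD, n = 4), Ctnna2 (56.4 ± 1.03), Ctnnd2 (36.7 ± 1.31), Cdh2 (30.6 ± 1.86), Ctnnbip1 (16.6 ± 1.85), Ctnna1 (16.5 ± 1.17), Ctnnd1 (14.6 ± 1.44), Ctnnbl1 (13.3 ± 0.677) and Jup (7.75 ± 0.637). Ctnnb1 exceeded Ctnna2 by 2.71 to 3.67 times in the 16 libraries. The 3 steps from Ctnna2 to Ctnnd2, from Cdh2 to Ctnnbip1 and from Ctnnbl1 to Jup also held in 16 of 16 libraries. Ctnnd2 was above Cdh2 in 14 of 16. The 4 genes in the middle had no fixed order, since Ctnnbip1 was above Ctnna1 in 10 of 16 libraries and Ctnnd1 above Ctnnbl1 in 9 of 16, although Ctnna1 was above Ctnnd1 in 15 of 16. The neuronal forms of the α- and δ-catenins, Ctnna2 and Ctnnd2, were thus each above their widely expressed relatives.

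**Figure D1:**
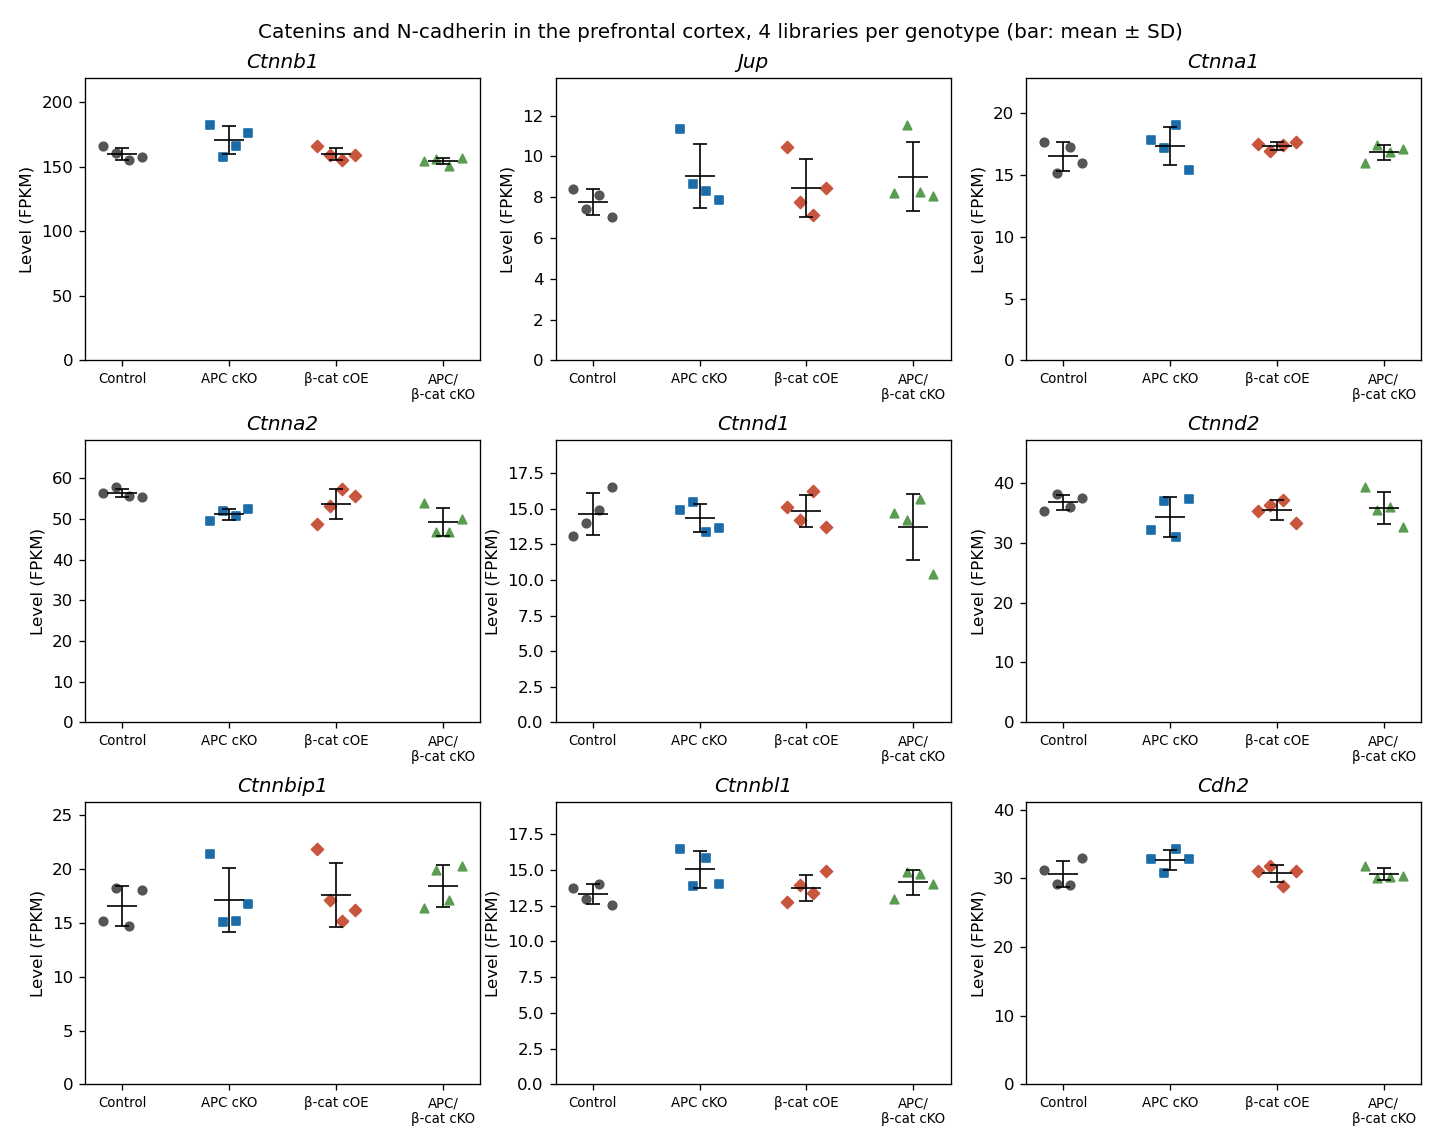
Level (FPKM, axis from 0) of each of the 9 genes in every library, with 4 points per genotype and the mean ± SD as bars. Ctnna2 is the gene whose 4 Control points, between 55.5 and 57.8 FPKM, lie above all points of both APC cKOs and APC/β-cat cKOs, and Jup has a single high point in each mutant genotype.

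Across the 3 comparisons with Control, 0 of the 9 members passed the adjusted threshold. In APC cKOs against Control, 6 genes of all those tested passed (0.0429%), in β-cat cOEs against Control 2 genes (0.0143%), and in APC/β-cat cKOs against Control 29 genes (0.207%). At an unadjusted limma p under 0.05 the members numbered 2 of 9 in APC cKOs (Ctnna2, lower, and Ctnnbl1, higher), where 10.0% of all tested genes passed. At that threshold there were 0 of 9 in β-cat cOEs, against 5.07% of all tested genes. There was 1 of 9 in APC/β-cat cKOs (Ctnna2, lower), against 14.2%. The libraries of the compared groups did not overlap for 1 member in APC cKOs (Ctnna2, lower; 5.47% of tested genes), for 0 in β-cat cOEs (3.08%) and for 1 in APC/β-cat cKOs (Ctnna2, lower; 5.21%). These 3 comparisons share the same Control libraries. Taken without sign, the members' median log2 difference was 0.09, 0.05 and 0.09 in the 3 comparisons, beside 0.09, 0.08 and 0.11 over all tested genes.

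**Figure D2:**
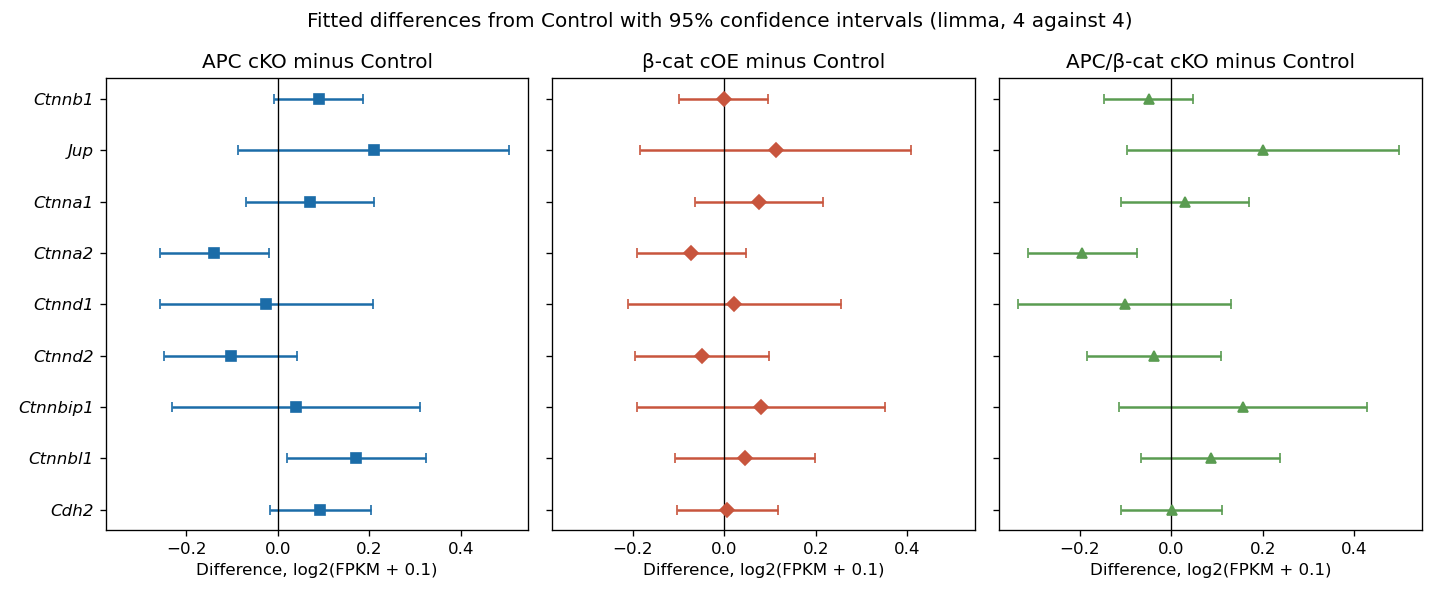
Fitted difference of each gene from Control, on the log2(FPKM + 0.1) scale, with the 95% confidence interval from limma as bars and one panel per mutant genotype. Only the intervals of Ctnna2 and Ctnnbl1 in APC cKOs, and of Ctnna2 in APC/β-cat cKOs, leave out 0, and none of these 3 differences passed the threshold after adjustment over all genes.

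Ctnnb1 mRNA did not pass the test against Control in any mutant line, the β-cat cOE line included. The Control libraries were at 165.8, 161, 155 and 157.3 FPKM. The APC cKO libraries were at 182, 157.3, 166.3 and 176 FPKM, and the β-cat cOE libraries at 166, 159, 155 and 159 FPKM. APC cKO replicates 1, 3 and 4 were thus above all Control libraries, replicate 3 by less than 1 FPKM, and replicate 2 lay in the lower part of the Control range. The range of β-cat cOEs covered the same span as Control. The APC/β-cat cKO libraries were at 155, 156, 151 and 157 FPKM, in the lower part of the Control range and below it. Against Control the log2 difference was 0.09 in APC cKOs (SE 0.05, adjusted p = 0.532), or 6.40% with an interval from -0.531% to 13.8%. It was 0.06 without APC cKO replicate 1 and 0.13 without replicate 2. For β-cat cOEs it was -0.00159 (SE 0.05, adjusted p = 0.999), with an interval from -6.62% to 6.85%. In APC/β-cat cKOs it was -0.05 (SE 0.05, adjusted p = 0.643), with an interval from -9.62% to 3.42%.

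The clearest contrast for Ctnnb1 lay between the 2 lines in which Cre targeted Apc. All 4 APC cKO libraries (157.3 to 182 FPKM) were above all 4 APC/β-cat cKO libraries (151 to 156.7 FPKM), though the nearest libraries were less than 1 FPKM apart. The difference was 10.1% (interval 2.88% to 17.7%), with an exact two-sided permutation p = 0.0286, the smallest that 4 against 4 libraries allow. It did not pass over all genes (limma adjusted p = 0.295). In this comparison Ctnnb1 was the 1 member of 9 at an unadjusted p under 0.05, against 10.3% of all tested genes, and the 1 member whose groups did not overlap, against 5.49%. By the adjusted p, 0 of 9 members and 0.215% of all genes passed. Oligodendrocyte markers (Mbp, Mog, Mag and Mobp, none at 0 in any library) also separated these groups, with sums of 290.1 to 361 FPKM in APC cKOs and 446 to 539 FPKM in APC/β-cat cKOs, and 4 of 4 were lower in APC cKOs at an unadjusted p under 0.05. Their part in the difference of Ctnnb1 was not tested. In bulk tissue, fewer cells of a type and less RNA per cell cannot be told apart.

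By immunoblot of the PFC, the paper reports more β-catenin protein than in controls for both lines meant to raise it. For the line with Apc and Ctnnb1 floxed together it reports a drastic loss of the protein. The values here are of mRNA, and protein was not measured. When the 2 lines meant to raise β-catenin were set against the other 2 groups, Ctnnb1 mRNA averaged 165 FPKM against 157 FPKM. The difference was 4.85% (interval -0.0308% to 9.96%, limma adjusted p = 0.566). Here 0 of 9 members passed the adjusted threshold (0.0572% of all genes did) and 0 of 9 passed unadjusted (8.84% did). The 2 raised lines compared with each other, APC cKOs against β-cat cOEs, gave 0 of 9 adjusted (0.0429%) and 0 of 9 unadjusted (7.57%). By the SD within a genotype, pooled over the 4 genotypes, Ctnnb1 was also the steadiest of the 9 genes, at 3.97% of its mean. Of the 9404 tested genes whose mean reached 5 FPKM, 3.56% had a lower value, the median being 8.18%. Those genes were not matched to Ctnnb1 by level. In single genotypes other members could be steadier. Ctnna2 was at 1.82% and Ctnnb1 at 2.84% in Control, and at 2.68% and 6.35% in APC cKOs. In β-cat cOEs Ctnna1 was at 1.82% and Ctnnb1 at 2.78%. In APC/β-cat cKOs Ctnnb1 had the lowest value, 1.65%.

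Jup, whose protein can replace β-catenin at the cadherin tail (chr11:100368856-100397790), was the least abundant member and, by the pooled spread, the least even. Its SD within a genotype was 16.2% of its mean. It was at 8.42, 7.44, 8.13 and 7.03 FPKM in Control libraries and at 11.4, 8.67, 8.31 and 7.88 FPKM in APC cKOs. It was at 10.4, 7.78, 7.13 and 8.46 FPKM in β-cat cOEs and at 8.20, 11.5, 8.24 and 8.07 FPKM in APC/β-cat cKOs. In each mutant line 1 library stood above 10 FPKM and the other 3 overlapped Control. In APC cKOs it was 15.6% above Control (interval -5.83% to 42.0%, adjusted p = 0.637). In β-cat cOEs it was 8.06% above (interval -12.0% to 32.7%, adjusted p = 0.963). In APC/β-cat cKOs it was 14.9% above (interval -6.44% to 41.1%, adjusted p = 0.519). Without APC cKO replicate 1 the log2 difference of that line was 0.10 in place of 0.21. Without β-cat cOE replicate 1 it was 0.00663 in place of 0.11, and without APC/β-cat cKO replicate 2 it was 0.08 in place of 0.20.

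Neither α-catenin passed the adjusted test in any line. Ctnna2, the form typical of neurons (chr6:76881637-77979667), was at 56.4, 57.8, 55.8 and 55.5 FPKM in Control. It was at 49.5, 52.0, 50.7 and 52.6 FPKM in APC cKOs and at 53.9, 46.8, 46.8 and 49.9 FPKM in APC/β-cat cKOs. All 8 libraries of these 2 lines were below all 4 Control libraries. In β-cat cOEs, with libraries at 48.7, 53.2, 57.4 and 55.6 FPKM, Ctnna2 spanned both ranges. Against Control the log2 difference was -0.14 in APC cKOs (SE 0.06, adjusted p = 0.424), or -9.17% with an interval from -16.4% to -1.37%. It was -0.19 in APC/β-cat cKOs (SE 0.06, adjusted p = 0.214), or -12.6% with an interval from -19.5% to -5.08%. The exact permutation p was 0.0286 in each, the smallest that 4 against 4 libraries allow. In β-cat cOEs it was -0.07 (SE 0.06, adjusted p = 0.95), or -4.87% with an interval from -12.4% to 3.30%, and the log2 difference was -0.03 without β-cat cOE replicate 1.

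The 8 libraries of APC cKOs and APC/β-cat cKOs averaged 50.3 FPKM of Ctnna2, and the 8 of Control and β-cat cOEs averaged 55.0 FPKM. The difference was -8.64% (interval -13.8% to -3.16%), with an exact permutation p of 0.00637 and a limma adjusted p of 0.191, so it was not called. By the unadjusted limma p Ctnna2 was the 1 member of 9 (13.3% of all genes), and by the adjusted p there were 0 of 9 (0.386% of all genes). Ctnna2 was also the 1 member of 9 at an unadjusted p under 0.05 between β-cat cOEs and APC/β-cat cKOs (11.9% of all genes), where it was 8.82% higher in β-cat cOEs (interval 0.218% to 18.2%, adjusted p = 0.408). In that comparison 0 of 9 members and 0.229% of all genes passed the adjusted threshold. The order of APC cKOs and APC/β-cat cKOs was not resolved, the difference being 3.91% with an interval from -4.31% to 12.8%. Microglial markers (Cx3cr1, P2ry12, Tmem119, Csf1r and Aif1, none at 0) summed to 78.6 to 83.9 FPKM in Control, 79.2 to 87.4 FPKM in APC cKOs and 86.5 to 91.6 FPKM in APC/β-cat cKOs. Astrocyte markers (Gfap, Aqp4, Slc1a3, Aldh1l1 and Gja1, none at 0) summed to 337 to 364 FPKM, 361 to 512 FPKM and 319 to 435 FPKM in the same groups. The part of either list in the Ctnna2 difference was not tested.

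Ctnna1, the widely expressed α-catenin (chromosome 18, as is Apc, 0.796 Mb away), had group means between 16.5 and 17.4 FPKM. Its libraries ran from 15.1 to 17.7 FPKM in Control, from 15.4 to 19.0 FPKM in APC cKOs, from 16.9 to 17.7 FPKM in β-cat cOEs and from 15.95 to 17.4 FPKM in APC/β-cat cKOs. All mutant ranges overlapped that of Control. The differences from Control were 5.04%, 5.36% and 2.1% in that order of lines, and their intervals together ran from -7.31% to 16.1%. With libraries left out singly the log2 difference in APC cKOs ran from 0.03 (without APC cKO replicate 3) to 0.13 (without APC cKO replicate 4), in place of 0.07. In β-cat cOEs it ran from 0.03 (without Control replicate 2) to 0.11 (without Control replicate 1), in place of 0.08. In APC/β-cat cKOs it was 0.03 and turned to -0.01 without Control replicate 2.

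Neither δ-catenin differed from Control beyond the spread of the libraries. Ctnnd2, the neural form found at synapses (chr15:30172593-31029343), was at 35.3, 38.2, 35.9 and 37.4 FPKM in Control and at 32.1, 36.9, 30.9 and 37.2 FPKM in APC cKOs. It was at 35.2, 36.3, 37.2 and 33.3 FPKM in β-cat cOEs and at 39.2, 35.5, 35.9 and 32.6 FPKM in APC/β-cat cKOs. APC cKO replicates 1 and 3 were the lowest of the 16 libraries, while replicates 2 and 4 of that line lay inside the Control range. The differences from Control were -6.89%, -3.39% and -2.61%, with intervals that together ran from -15.9% to 7.78% (adjusted p from 0.638 to 0.969). Ctnnd1, or p120-catenin, which steadies cadherins at the membrane (chr2:84600781-84650740), had Control libraries from 13.1 to 16.5 FPKM. It ran from 13.4 to 15.5 FPKM in APC cKOs, from 13.7 to 16.3 FPKM in β-cat cOEs and from 10.4 to 15.7 FPKM in APC/β-cat cKOs. The value of 10.4 FPKM was that of APC/β-cat cKO replicate 4, and without it the log2 difference of the line turned from -0.10 to 0.03. The proteins translated from the 2 genes were identical at 379 of 929 aligned residues (40.8%).

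Ctnnbip1 and Ctnnbl1 did not pass the adjusted test in any line. Ctnnbip1 (chr4:149518241-149566437) encodes a small protein that binds β-catenin and keeps it from TCF factors. It was at 15.2, 18.2, 14.8 and 18.04 FPKM in Control and at 21.4, 15.1, 15.2 and 16.7 FPKM in APC cKOs. It was at 21.8, 17.2, 15.2 and 16.2 FPKM in β-cat cOEs and at 16.4, 20.0, 17.1 and 20.3 FPKM in APC/β-cat cKOs. Replicate 1 of APC cKOs and of β-cat cOEs stood apart above their groups, and otherwise the ranges overlapped. The differences from Control were 2.82%, 5.72% and 11.4%, with wide intervals that together ran from -14.8% to 34.5%. Without APC cKO replicate 1 the sign of its line turned, to -0.07 on the log2 scale.

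Ctnnbl1 (chr2:157737401-157891903) encodes a nuclear protein of the splicing machinery that takes its name from its armadillo repeats. It was at 13.71, 12.99, 14 and 12.51 FPKM in Control and at 16.43, 13.90, 15.80 and 13.98 FPKM in APC cKOs. APC cKO replicates 1 and 3 were above every Control library, and replicates 2 and 4 lay just below the highest Control. The log2 difference was 0.17 (SE 0.07, adjusted p = 0.437), or 12.7% with an interval from 1.39% to 25.2%, and the exact permutation p was 0.0857. In β-cat cOEs (12.7 to 14.9 FPKM) and APC/β-cat cKOs (12.9 to 14.9 FPKM) the differences were 3.14% (interval -7.20% to 14.6%) and 6.16% (interval -4.49% to 17.99%). Both ranges overlapped that of Control.

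Cdh2, the cadherin that the catenins hold at neuronal contacts, lies on chromosome 18, 17.412 Mb from Apc. By the pooled SD within a genotype it was nearly as steady as Ctnnb1, at 4.43% of its mean. It was at 31.2, 29.2, 29.1 and 33.02 FPKM in Control and at 32.8, 30.8, 34.2 and 32.9 FPKM in APC cKOs. It ran from 28.9 to 31.8 FPKM in β-cat cOEs and from 30.1 to 31.8 FPKM in APC/β-cat cKOs. The 4 genotypes overlapped. The difference from Control was 6.71% in APC cKOs (interval -1.15% to 15.2%), 0.436% in β-cat cOEs (interval -6.95% to 8.41%) and 0.112% in APC/β-cat cKOs (interval -7.25% to 8.06%).

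The balance between paralogs was then read as a share, which does not depend on how a library was scaled. Ctnna2 made up 77.4% ± 1.43 (SD, n = 4) of α-catenin mRNA (Ctnna1 and Ctnna2) in Control. The mutant lines had 74.7% ± 2.06 (APC cKO), 75.5% ± 1.36 (β-cat cOE) and, with Apc and Ctnnb1 both floxed, 74.5% ± 1.91. The share differed from Control by -2.67, -1.84 and -2.85 percentage points, and the smallest exact permutation p was 0.0857 (0.321 after adjustment over the 9 share tests). Ctnnd2 made up 71.6% ± 1.82 of the δ-catenin pair in Control, and in the same order of lines 70.4% ± 2.07, 70.5% ± 1.03 and 72.4% ± 2.62. Jup made up 4.62% ± 0.329 of the sum of Jup and Ctnnb1 in Control, and 5.04% ± 0.676, 5.01% ± 0.666 and 5.50% ± 0.930 in the lines. The APC/β-cat cKO libraries ran from 4.90% to 6.88% and the Control libraries from 4.28% to 4.97%, with an exact permutation p of 0.0571 (adjusted 0.321). Of the 9 share tests 0 passed after adjustment, and 0 had an unadjusted p under 0.05.

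**Figure D3:**
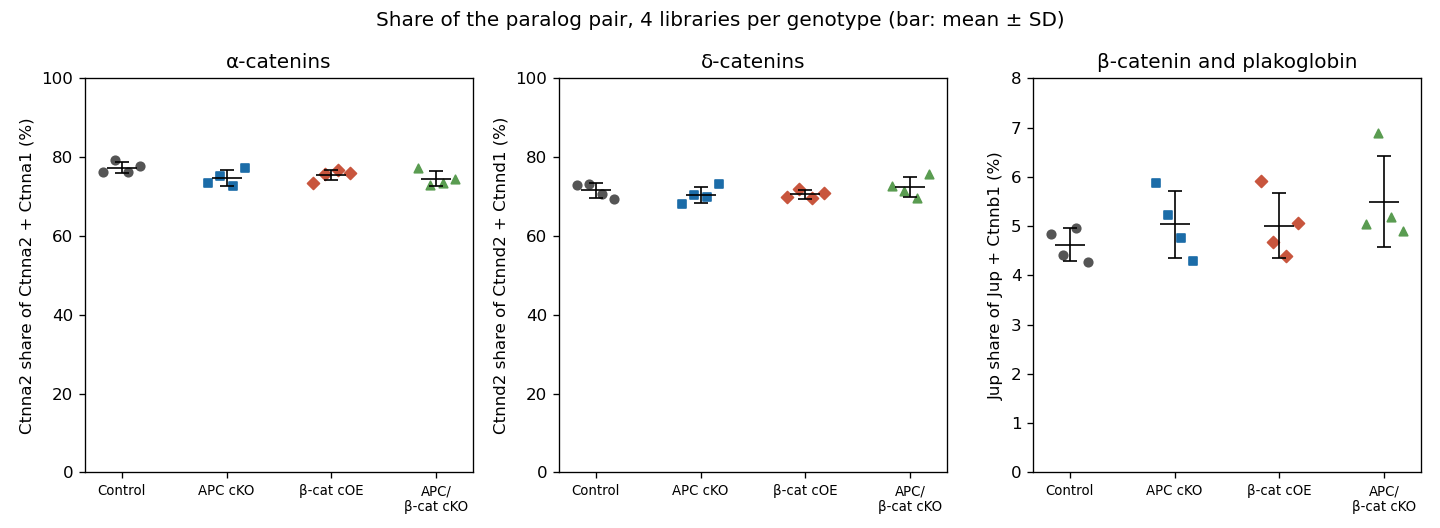
Share (%) of the first-named paralog in the summed FPKM of the pair, for α-catenins, δ-catenins and plakoglobin with β-catenin, with 4 libraries per genotype and the mean ± SD as bars. The first panels run from 0 to 100% and the last from 0 to 8%, and in each the mutant points overlap those of Control.

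Some pairs of members ran opposite to each other from mouse to mouse. Of the 36 pairs of members, 3 had a Pearson's r that passed a permutation test with 100000 resamples after adjustment over the 36, and 8 passed unadjusted. Ctnna1 and Ctnnd2 ran opposite (r = -0.78, adjusted permutation p = 0.0126, and Spearman's rho = -0.83, adjusted permutation p = 0.00576). Ctnnd2 and Ctnnbl1 also ran opposite (r = -0.76, adjusted permutation p = 0.0126, and rho = -0.71, adjusted permutation p = 0.0529), as did Jup and Ctnna2 (r = -0.69, adjusted permutation p = 0.0326, and rho = -0.60, adjusted permutation p = 0.11). Without the 2 libraries farthest from the median of the first gene, the r values were -0.80, -0.55 and -0.56. With each genotype's mean removed they were -0.77, -0.74 and -0.65, so the relations were of similar size within genotypes. By Spearman's rho only the first passed. With genotype means removed 5 pairs passed, the other 2 being positive, Ctnnb1 with Ctnnbip1 (r = 0.67, adjusted permutation p = 0.0475, against r = 0.30 before removal) and Ctnna1 with Ctnnbl1 (r = 0.64, adjusted permutation p = 0.0475, against r = 0.61). Ctnnb1 and Cdh2, whose proteins bind each other, had r = 0.57 (adjusted permutation p = 0.125), and Jup and Ctnnb1 had r = 0.38. All values of a library share its scaling and its tissue.

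The libraries that stood out for Jup also stood out for markers of other cells. The 10 marker lists of 4 or 5 genes each were compared with the 9 members, a comparison chosen after the values were seen. Of these 90 relations 1 passed after adjustment and 22 passed unadjusted. Jup varied with the astrocyte list (r = 0.80, adjusted permutation p = 0.0351, and rho = 0.67, adjusted permutation p = 0.133), with r = 0.51 without the 2 libraries of most extreme Jup and r = 0.84 with genotype means removed. The 3 libraries with the highest Jup, APC/β-cat cKO replicate 2, APC cKO replicate 1 and β-cat cOE replicate 1, had summed astrocyte markers of 435, 512 and 420 FPKM, while the other 13 ran from 319 to 403 FPKM. These 3 were also the highest in immature neuron markers (Dcx, Sox11, Cd24a, Dlx1 and Dlx2), with 49.6, 77.7 and 51.6 FPKM against 17.1 to 39.1 FPKM in the others. What these lists contributed to the level of Jup was not tested.

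Ctnnd2 varied with the excitatory neuron list (r = 0.71, adjusted permutation p = 0.0726, and rho = 0.68, adjusted permutation p = 0.133), with r = 0.57 without its 2 extreme libraries and 0.71 with genotype means removed. It varied to the same degree, in the opposite direction, with the ependymal and choroid plexus list (Ttr, Foxj1, Kl, Folr1 and Tmem212, which summed to between 1.66 and 13.8 FPKM), with r = -0.71 (adjusted permutation p = 0.0726, and rho = -0.59, adjusted permutation p = 0.181), -0.52 without the 2 libraries and -0.66 with genotype means removed. With the excitatory neuron list Ctnna2 had the same sign as Ctnnd2 (r = 0.52, adjusted permutation p = 0.17). Ctnnbip1 (r = -0.66, adjusted permutation p = 0.0759) and Jup (r = -0.61, adjusted permutation p = 0.0922) ran opposite to the excitatory neuron list. Without the 2 extreme libraries of each gene, r was 0.64 for Ctnna2, -0.37 for Ctnnbip1 and -0.52 for Jup. None of these 5 relations passed after adjustment over the 90. Ctnnd1 was lower where striatal neuron markers were higher (r = -0.63, adjusted permutation p = 0.0759), and Ctnnb1 was lower where oligodendrocyte markers were higher (r = -0.61, adjusted permutation p = 0.0922). The latter was r = -0.30 without the 2 libraries of most extreme Ctnnb1 and r = -0.13 with genotype means removed. Ctnnb1 was higher where immature neuron markers were higher (r = 0.62, adjusted permutation p = 0.0922). Here r was 0.27 without the same 2 libraries and 0.54 with genotype means removed. For Ctnnb1 with the ependymal and choroid plexus list and with the astrocyte list, r was 0.58 and 0.57. Without the same 2 libraries these were 0.42 and 0.28, and with genotype means removed 0.56 and 0.47. None of these relations of Ctnnb1 passed after adjustment over the 90.

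**Figure D4:**
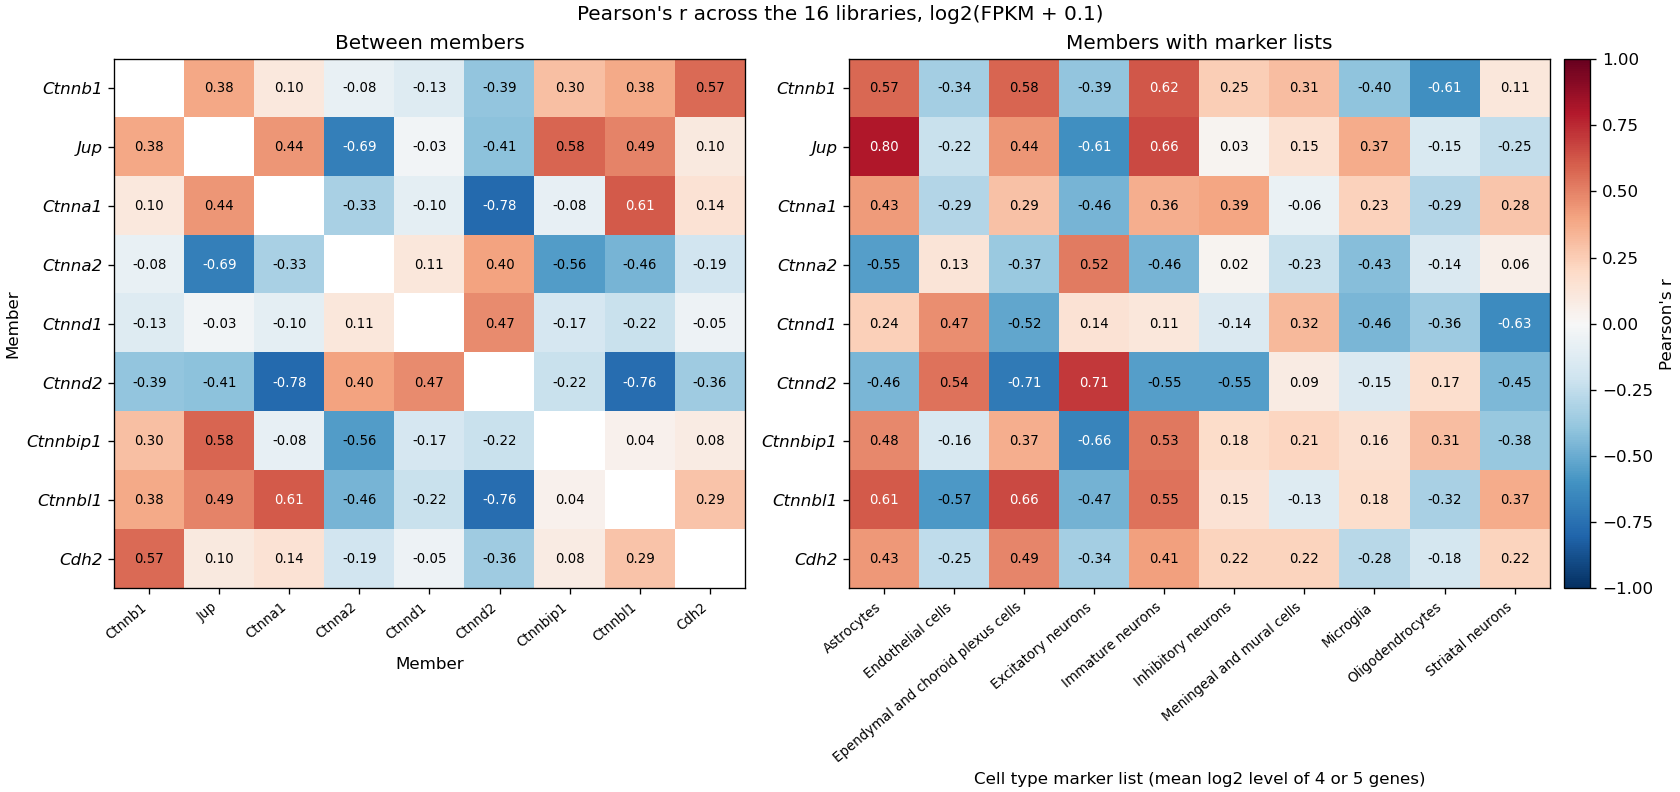
Pearson's r across the 16 libraries on the log2(FPKM + 0.1) scale, between pairs of the 9 genes (left) and between each gene and the mean of each marker list (right), with red for positive and blue for negative values. The deepest colors are Jup with astrocyte markers (0.80), Ctnna1 with Ctnnd2 (-0.78) and Ctnnd2 with Ctnnbl1 (-0.76).

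**Figure D5:**
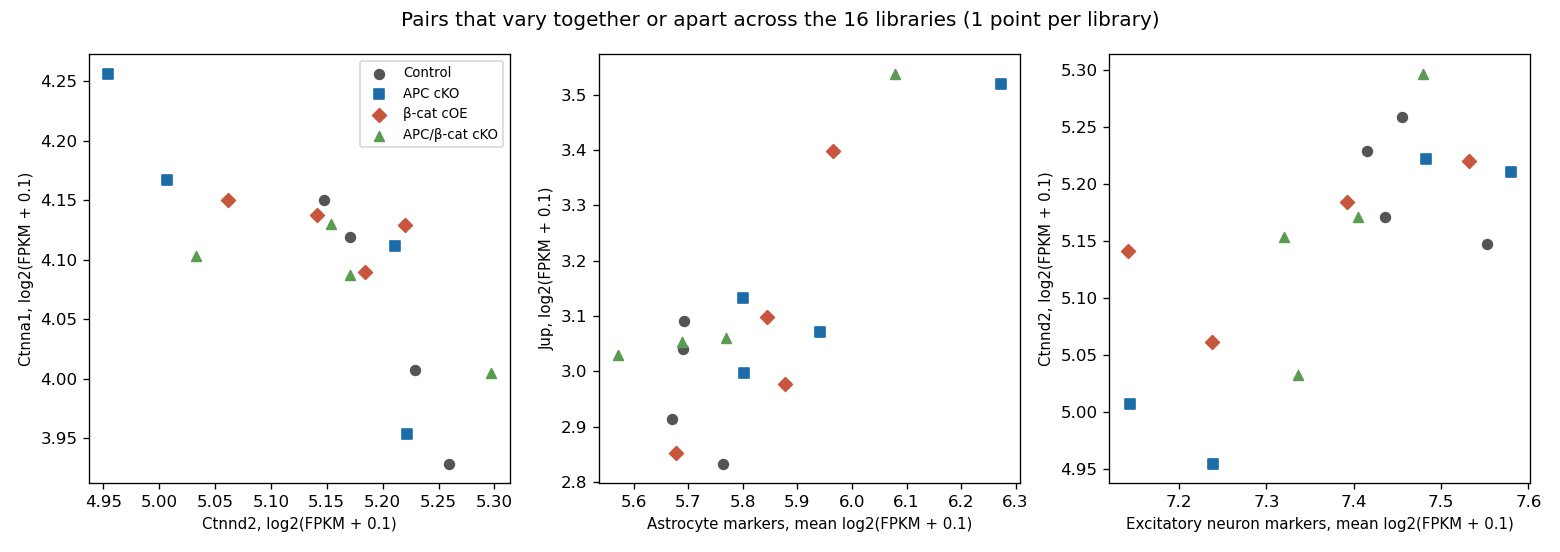
Ctnna1 against Ctnnd2, Jup against the astrocyte marker mean and Ctnnd2 against the excitatory neuron marker mean, all as log2(FPKM + 0.1), with 1 point per library and the genotype given by color and shape. Points of each genotype are spread along the trends, and 3 libraries from 3 mutant genotypes hold the upper right of the middle panel.

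For each member the 3 genes of at least 1 FPKM with the most similar pattern over the 16 libraries were listed by Pearson's r, as a description. Ctnnd2 had the closest companions, Tecpr2 (0.94), the synaptic vesicle gene Sv2b (0.94) and Pcnxl2 (0.92). Ctnnb1 was most like Sncaip (0.87), Magee2 (0.86) and Tead2 (0.83), and Jup most like Gm16515 (0.90), the transcription factor Stat5b (0.88) and Rnd3 (0.88). Ctnnd1 was most like Sepsecs (0.90), Rnf141 (0.89) and Chml (0.87). Ctnna2 was most like Dnajc10 (0.86), Orc2 (0.85) and Ppap2a (0.85), and Ctnna1 was most like Chtf8 (0.80) and the RNA-binding proteins Hnrnpm (0.78) and Hnrnpc (0.78). Ctnnbip1 was most like Phc2 (0.84), Ilvbl (0.83) and Selm (0.82), Ctnnbl1 most like Nnat (0.85), Zfp598 (0.84) and Gm13889 (0.83), and Cdh2 most like Zfp804a (0.83), Il13ra1 (0.82) and Twsg1 (0.80). No member was among the 3 closest genes of another.

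The wider pathway was read through lists of genes that act with the members. Of the 12 genes of the destruction complex, all tested, Apc itself was the only one called in APC cKOs and in APC/β-cat cKOs, and 0 were called in β-cat cOEs. The list's median log2 difference from Control was -0.07, -0.05 and -0.15 in the 3 lines, beside -0.00421, -0.00358 and 0.00305 for all tested genes. At an unadjusted p under 0.05, 2 of its genes were lower and 1 higher in APC cKOs, 0 passed in β-cat cOEs and 5 were lower in APC/β-cat cKOs. The lower genes of both lines include Apc, which Cre targeted. The shares of all tested genes at that threshold were 10.0%, 5.07% and 14.2% in the 3 comparisons. Among 13 nuclear partners of β-catenin (TCF and LEF factors and cofactors) 0 were called in any line, with medians of -0.00815, -0.04 and -0.11. Unadjusted, 3 were lower in APC/β-cat cKOs, where 14.2% of all tested genes passed, and 0 passed in the other lines (10.0% and 5.07%). The largest difference in APC/β-cat cKOs was that of Cdc73, a partner of β-catenin in transcription, at 9.05 ± 1.04 FPKM against 11.2 ± 0.574 FPKM in Control (log2 difference -0.31, SE 0.08, adjusted p = 0.174). In APC cKOs it was that of Tcf7l1 (0.37, SE 0.21, adjusted p = 0.581) and in β-cat cOEs that of Pygo1 (0.20, SE 0.12, adjusted p = 0.95).

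Of 17 junction partners, 16 were in the table and tested and 0 were called in any line, with medians of 0.00678, -0.02 and -0.08. Unadjusted, 1 was lower in APC cKOs (10.0% of all tested genes passed) and 0 passed in β-cat cOEs (5.07%), while 3 were lower and 1 higher in APC/β-cat cKOs (14.2%). The scaffold gene Magi2 had the largest difference in both lines in which Cre targeted Apc, at 24.1 ± 1.104 FPKM in Control, 20.7 ± 2.53 FPKM in APC cKOs (log2 difference -0.23, adjusted p = 0.528) and 19.5 ± 3.77 FPKM in APC/β-cat cKOs (-0.32, adjusted p = 0.278). The largest in β-cat cOEs was that of Lima1, which encodes an actin-binding protein (0.25, adjusted p = 0.95). Of 7 further catenin relatives 4 passed the filter on level and 0 were called, the largest difference being that of Pkp2 in every line (-0.12, -0.33 and -0.15, adjusted p from 0.836 to 0.95). Of 4 other type I cadherins 2 passed the filter and 0 were called, with Cdh1 at 0.27, -0.31 and -0.34 (adjusted p from 0.515 to 0.95). In neither of these lists did a gene have an unadjusted p under 0.05 in a line against Control.

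Canonical Wnt target genes are those that β-catenin switches on in the nucleus. Of 13 listed targets 10 passed the filter, and 0 were called in any of the 3 comparisons. Their median log2 difference from Control was 0.24, 0.05 and -0.02 in the 3 lines, in the order used above, beside -0.00421, -0.00358 and 0.00305 for all tested genes. Of the 10, 3 were higher in APC cKOs by an unadjusted p under 0.05 (10.0% of all tested genes passed in either direction), 1 in the APC/β-cat cKO line (14.2%) and 0 in β-cat cOEs (5.07%), and 0 were lower in any. The largest differences were those of Notum, a secreted Wnt antagonist, in APC cKOs (2.82 ± 1.81 FPKM against 1.148 ± 0.149 FPKM, log2 difference 1.02, SE 0.35, adjusted p = 0.358) and in β-cat cOEs (log2 difference 0.44, SE 0.35, adjusted p = 0.95). In APC/β-cat cKOs it was the cyclin gene Ccnd1, at 17.3 ± 3.97 FPKM against 11.0 ± 2.27 FPKM (log2 difference 0.64, SE 0.17, adjusted p = 0.168).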

How the data were processed

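RNA from the PFC of 4 mice per genotype was prepared with Illumina TruSeq stranded mRNA and sequenced as 100-base pairs. The authors mapped reads to mm10 with TopHat2 (2.0.10 in the submitters' processing notes) and made expression values with Cufflinks2 (Cuffdiff 2.1.1 in those notes); the annotation is not given in the sources used here. The deposited table holds log2 values whose base and offset are inferred. Read as log2(FPKM + 1), FPKM times transcript length in kb sums to 592239 to 627186 per library, while natural logs would give 5279898 to 5871089. The design had assumed FPKM, so the values were turned back.

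Genes were tested with limma 3.58.1 in R 4.3.3 (lmFit, contrasts.fit, eBayes with a trend) on log2(FPKM + 0.1) in 1 model of 16 libraries, with 12 residual degrees of freedom. Single values used exact two-sided permutation tests. The method was tested on simulated data. Named genes are the 9 members, Apc, called genes and the largest change of each list, and the 3 genes most like each member. Members, lists and tests were chosen with earlier results of these data known. Control replicate 1 and APC cKO replicate 1 had Xist of at least 22.1 FPKM and the other 14 libraries at most 0.019 FPKM. Ddx3y was at 0 in Control replicate 1 and APC cKO replicate 1 and between 14.5 and 21.8 FPKM in the other 14. A pair of genes from the marker lists is not reported here and was left out of them. Sequences come from GRCm38 with GENCODE, read with Python 3.11.15 and Biopython. Alternatives were other pseudocounts, filters, scalings and blocks, and each library left out.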

Additional observations from a re-analysis of the deposited data

Results flagged for a closer look

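Within each genotype the highest and the lowest of the 4 libraries were compared with the next by Dixon's ratio, the gap to the neighboring library over the whole range. For 9 genes and 3 shares this made 48 groups, of which chance would mark about 1 in 20, or 2.4. The ratio was above the critical value of 0.829 in 3 groups, all of APC/β-cat cKOs. It was 0.949 for the level of Jup, where replicate 2 was at 11.5 FPKM and the other libraries at 8.07 to 8.24 FPKM. It was 0.857 for the share of Jup in the sum of Jup and Ctnnb1, which rests on the same library (6.88% against 4.90% to 5.18%). It was 0.863 for Cdh2, where replicate 1 was at 31.8 FPKM and the others at 30.1 to 30.3 FPKM.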

How the results depend on the processing

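The count of called members stayed at 0 in all 8 comparisons under every alternative run, which were 26 for each pair of groups and 25 for each comparison of 8 against 8 libraries, the blocks and each library left out included. Ctnna2 kept its direction in every alternative, from -0.24 to -0.17 on the log2 scale in APC/β-cat cKOs (adjusted p from 0.08 to 0.481) and from -0.15 to -0.11 in APC cKOs (adjusted p from 0.342 to 0.772). Of the 27 differences of members from Control, 22 moved by over 1.5 times or changed sign, 10 of them the latter, when 1 library was left out, and 5 did not (Ctnna2 and Ctnnbl1 in both lines in which Cre targeted Apc, and Cdh2 in APC cKOs). Nearness to 0 did not decide which changed sign. With all libraries Ctnnd1 in APC/β-cat cKOs was at -0.10 and turned, while Ctnnbl1 in β-cat cOEs was at 0.04 and did not. With libraries left out singly the log2 difference ran from -0.0754 to 0.0342 for Ctnnd1 and from -0.0715 to 0.0945 for Ctnnbip1 in APC cKOs. In β-cat cOEs it ran from -0.0199 to 0.0161 for Ctnnb1, from -0.0285 to 0.0811 for Ctnnd1, from -0.0278 to 0.147 for Ctnnbip1 and from -0.0180 to 0.0430 for Cdh2. In APC/β-cat cKOs it ran from -0.0110 to 0.0631 for Ctnna1, from -0.170 to 0.0255 for Ctnnd1, from -0.0827 to 0.00547 for Ctnnd2 and from -0.0226 to 0.0383 for Cdh2, and the Ctnnd2 share differed by -0.277 to 1.80 points. Median-of-ratios and quantile scaling turned Ctnnb1 in β-cat cOEs to 0.00160 and 0.0147, and Cdh2 in APC/β-cat cKOs to -0.00202 and -0.00513. Without the 2 libraries with high Xist, Ctnnbip1 in APC cKOs was -0.111, and in β-cat cOEs Ctnnb1 was 0.0161 and Ctnnd1 -0.0285. The title number as a replicate block turned Ctnnd1 to 0.0404 and Ctnnbip1 to -0.00494 in APC cKOs and called 0 members. Libraries of the same number did not deviate together (r from -0.218 to 0.322 over 21 pairs, 4 of them over 0.1), so the numbers were not taken as pairs. Numbers in the column names, tried as a block after seeing the data, also called 0 members. Of the 36 member correlations 1 passed by Spearman's rho, in place of 3. With genotype means removed 5 passed, by p-values that are too small for the reason given above. The cause of these changes was not tested. Depth is unknown, and 4 libraries per group limit the exact test to p = 0.0286.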
